A study of Marchantia polymorpha with 6 samples.

Results

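In thalli of the liverwort Marchantia polymorpha, 25 genes were expressed in every control library and were near-silent in thalli grown with arsenite, a trivalent form of arsenic. They were chosen by their CPM (reads of a gene per 1000000 reads of its library): at least 2 CPM in each of 3 control libraries, and a mean below 1 CPM over 3 arsenite libraries. Of 19472 gene IDs listed per library, 11313 reached the control floor. Of those, 25 (0.221%) also lay below the arsenite ceiling and were kept, and 3 more met both thresholds but were left out by the rule, 2 of them cytochrome P450s. The values that chose the genes are the values described here, so the difference of these 25 genes between the groups is a description, and calls of the fit across all genes are counted for them without being read as support.

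Control and arsenite plants shared the genotype labelled Cam1 and were kept at 21 °C. Their half-strength Gamborg plates held 2.5 µM sodium arsenite or none. Each group had 3 samples of poly(A) RNA from thallus, the flat photosynthetic body of the plant. The labels do not say whether samples of a group came from separate cultures, so the spread between them may be partly technical. Library totals ran from 26579324 to 47532310 reads, so the floor of 2 CPM stood for 53.4 to 95.1 reads in the controls. Thallus RNA pools many cell types, and fewer cells of a type and less RNA per cell cannot be told apart in such samples.

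Liverworts make a rich set of phenolic and terpenoid compounds, many of them stored in oil body cells. Phenylpropanoid units are hydroxylated by cytochrome P450s, oxidised to radicals by class III peroxidases and laccases, and coupled with a defined geometry by dirigent proteins. Cell walls are remodelled by glycoside hydrolases and decorated by glycosyltransferases. A symbol was available for 11 of the 25 genes, and their symbols placed them among dirigent proteins, P450s, peroxidases, wall enzymes, a germin-like protein, a lipoxygenase and a lipid transfer protein. The other 14 carried no symbol and are named by ID, with no role given.

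Near-silence was uneven among the 25 genes. The mean control CPM exceeded the mean arsenite CPM at least 10-fold in 11 genes, 3-fold to 10-fold in 11 and less than 3-fold in 3, with a median of 8.06-fold. Every arsenite library was below 1 CPM for 16 genes, while 9 had at least 1 arsenite library at or above it. Groups did not overlap for any of the 25, which the rule nearly forces; every control was above every arsenite library in 16% of all tested genes. The lowest control was at least 3 times the highest arsenite library for 15 genes and less than 2 times for 3, the least being 1.66 times for MpGT37.11. CPM summed over the 25 genes was 168, 126 and 255 in control replicates 1, 2 and 3, and 15.3, 12.7 and 17.7 in arsenite replicates 1, 2 and 3. Without the dirigent genes MpDIR46 and MpDIR47 the sums were 157, 119 and 112 in controls and 14.8, 11.6 and 16.4 with arsenite. Control replicate 3 was then the lowest control.

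**Figure D1:**
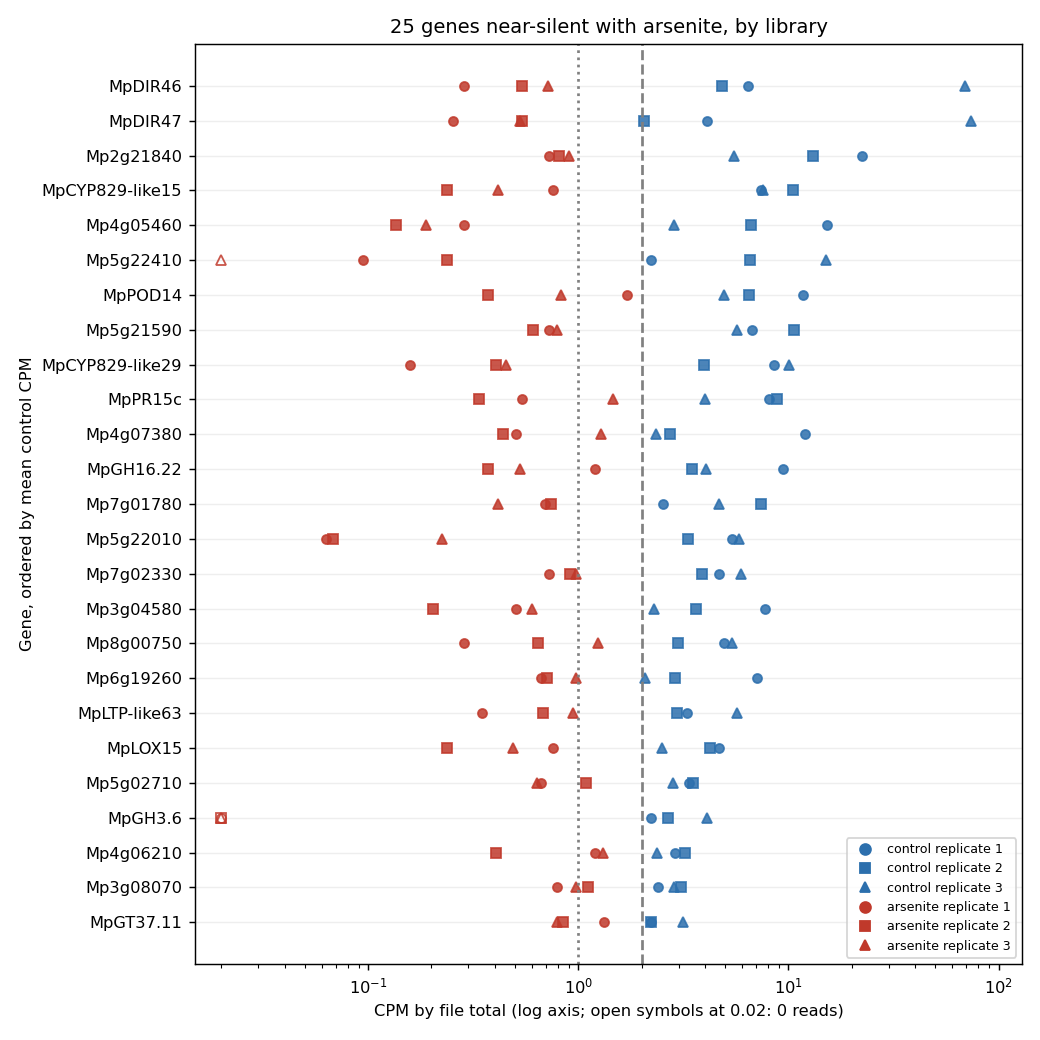
CPM of each of the 25 genes (rows, ordered by mean control CPM) in the 3 control libraries (blue) and the 3 arsenite libraries (red), on a log axis. Open symbols mark libraries with 0 reads, the dashed line is 2 CPM and the dotted line 1 CPM. No arsenite point reaches the controls of its gene, which the choice of the genes nearly forces (16% of all tested genes share it), and MpDIR46 and MpDIR47 have 1 control library, replicate 3, far above the other two.

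The thresholds cut through a continuous field of genes. Just inside the arsenite ceiling were MpPOD14, Mp4g06210 and MpGT37.11, with arsenite means of 0.970, 0.976 and 0.989 CPM. Just outside were Mp5g11260, the terpene synthase MpFTPSL8 and the peroxidase MpPOD15, with 1.02, 1.09 and 1.11 CPM. At the control floor, the lowest control stood at 2.06 CPM for MpDIR47, 2.08 for Mp6g19260 and 2.21 for Mp5g22410. On the far side, Mp8g00730 had 1.95 CPM in its lowest control, and Mp7g08260 and Mp8g04340 had 1.92 each.

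**Figure D2:**
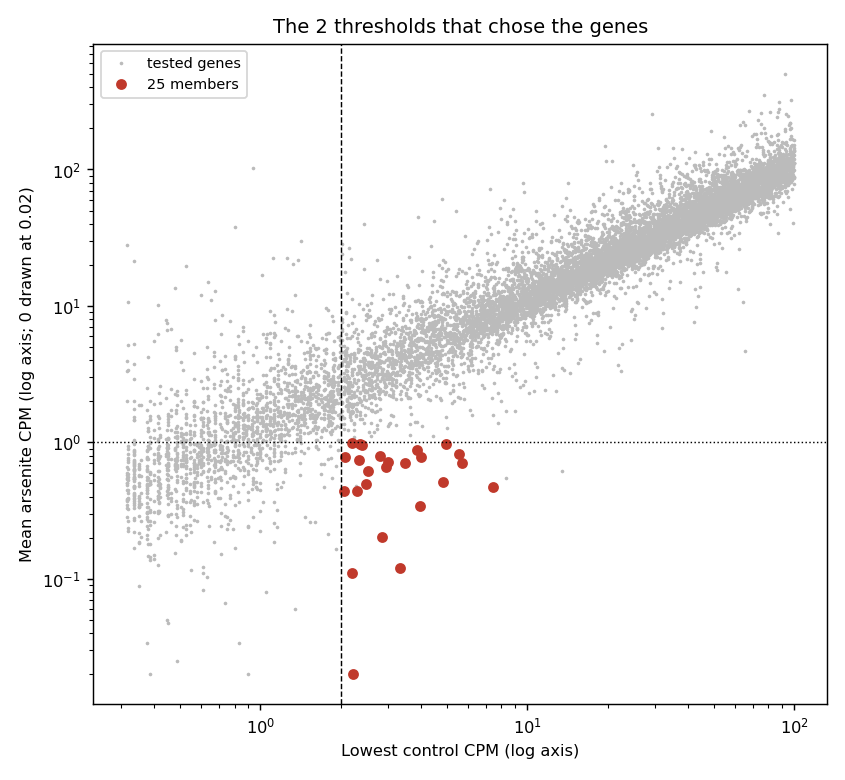
Lowest control CPM against mean arsenite CPM for the tested genes with a lowest control from 0.3 to 100 CPM, both on log axes. The dashed and dotted lines are the thresholds of 2 and 1 CPM, red points are the 25 genes, and MpGH3.6, with 0 arsenite reads, is drawn at 0.02. Some of the red points lie at the corner of the thresholds and others far below the main cloud.

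In the fit across all 13544 tested genes (the quasi-likelihood test of edgeR, Benjamini-Hochberg adjusted p below 0.05), 290 genes (2.14%) were called lower with arsenite and 276 (2.04%) higher. All 25 genes passed the filter on low counts and 19 of them were called lower, a count that the choice of the genes fixes in large part. The 6 that were not called were MpDIR46, MpDIR47, MpGT37.11, Mp4g06210, Mp4g07380 and Mp6g19260. The median log2 fold change of the 25 was -2.97, against -0.004 over all tested genes. With arsenite replicate 2 left out, 3 of the 25 were called (beside 0.168% of all tested genes), and with arsenite replicate 1 or 3 left out 11 (1.21%) and 16 (1.67%). Leaving out control replicate 1, 2 or 3 gave 10 (0.512%), 8 (0.707%) and 11 (0.695%). At an adjusted p below 0.01, 4 were called, beside 0.251% of all tested genes. DESeq2 called 23 and gave no adjusted p for MpDIR46 and MpDIR47, and it called 4.73% of all genes lower and 5.48% higher. Voom of limma called 14, beside 1.93% of all genes lower and 1.99% higher, and a block on the replicate number gave 17, beside 1.62% lower. Of the 19 calls, 2 held in all 12 alternatives run, 7 changed in 1 to 4 and 10 in 5 or more. Names of the count tables of arsenite replicate 2 and control replicate 2 carry a further tag, which differs between them and is not explained in the labels, and no batch was modelled.

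Dirigent proteins steer the coupling of phenolic radicals. MpDIR47 (Mp3g24150) had 4.08, 2.06 and 74.2 CPM in control replicates 1, 2 and 3 and 0.253, 0.542 and 0.527 CPM in arsenite replicates 1, 2 and 3. MpDIR46 (Mp3g24160), the next gene on chromosome 3, had 6.42, 4.83 and 69.2 CPM in controls and 0.285, 0.542 and 0.715 CPM with arsenite. Both were above every arsenite library in every control, but control replicate 3 set the size of the difference. The ratio of means was 60.8-fold for MpDIR47 and 52.2-fold for MpDIR46, and 6.97-fold and 10.9-fold without control replicate 3. The reads behind the high library were 2319 and 2161, against 8 to 19 per arsenite library.

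The pair lay in a run of 6 dirigent genes, MpDIR48, MpDIR47, MpDIR46, MpDIR45, MpDIR44 and MpDIR64, and in all 6 control replicate 3 was the highest library. MpDIR48 had 1.43, 0.899 and 38.3 CPM in control replicates 1, 2 and 3 and 0.0950, 0.135 and 0.489 CPM with arsenite. It was not a member because it missed the control floor in the 2 lower controls, and it was not called (log2 fold change -5.80 ± 1.71 SE, adjusted p = 0.112, edgeR). MpDIR44 had 1.35, 1.35 and 7.87 CPM in controls and 0, 0.0677 and 0.113 CPM with arsenite, and it was called lower (log2 fold change -5.80 ± 1.13, adjusted p = 0.0397, edgeR). MpDIR64 had 1.47, 1.05 and 9.22 CPM in controls and at most 0.0950 CPM with arsenite, and was also called lower (log2 fold change -5.51 ± 1.09, adjusted p = 0.0410, edgeR). These 2 calls were weak, since MpDIR44 lost its call in all 6 runs with a library left out and MpDIR64 in 5. MpDIR45, at 1.05, 0.300 and 8.35 CPM in controls and 0.0376 to 0.158 CPM with arsenite, did not pass the filter on low counts. Counts of such close paralogs are uncertain where a read fits several copies.

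Control replicate 3 stood apart in this run and not in the rest of the family. Its CPM was 5.84 to 26.8 times the higher of the 2 other controls in the 6 genes of the run. In the 33 other dirigent genes with at least 1 CPM in some control, that ratio ran from 0.324 to 1.65, with a median of 0.833. Over all 19472 IDs, 11 had at least 5 CPM in control replicate 3 and at least 5 times the CPM of both other controls, and 6 of the 11 were the genes of this run. The other 5 were MpGH17.3, MpCAT4, MpNPF27, Mp4g05770 and Mp7g05920, and 1 of these, Mp4g05770, also had a mean below 1 CPM with arsenite. This pattern was noticed in the values before it was counted.

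**Figure D3:**
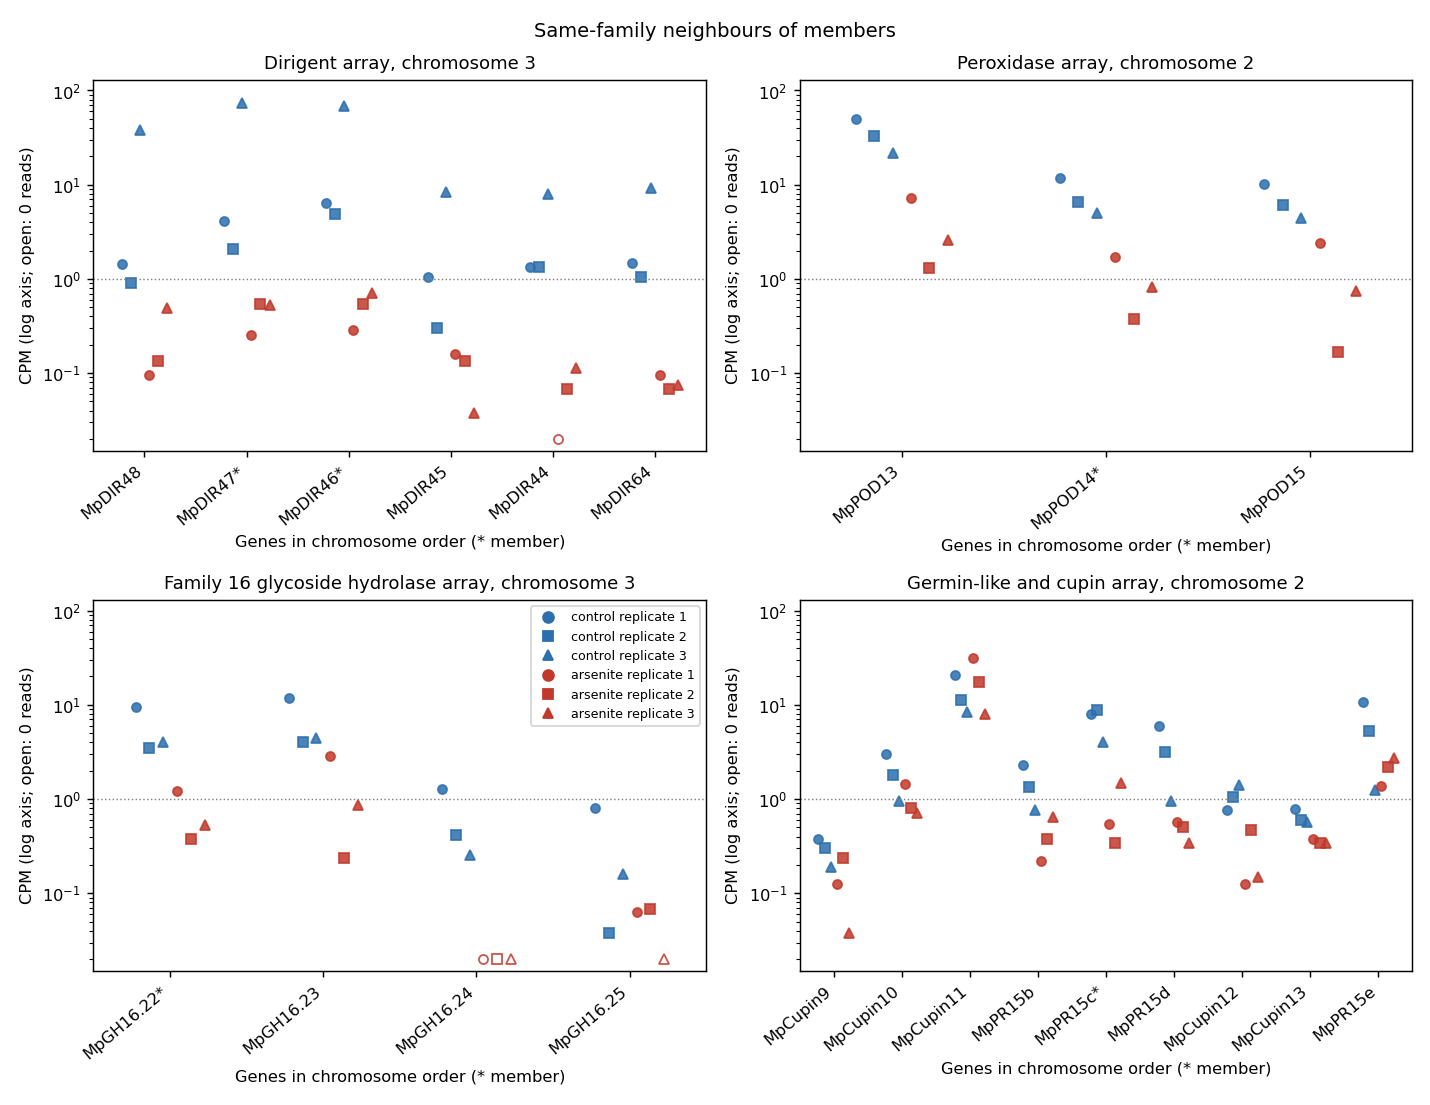
CPM on a log axis in the 3 control libraries (blue) and the 3 arsenite libraries (red) for same-family genes that neighbour a member, in chromosome order; a star marks the members and open symbols mark 0 reads. Control replicate 3 is highest in all 6 dirigent genes, and control replicate 1 is highest in the peroxidase and family 16 runs. The cupin run is mixed, with MpCupin9, MpCupin10, MpCupin11 and MpPR15e overlapping between groups.

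Class III peroxidases oxidise phenols with hydrogen peroxide in the cell wall. MpPOD14 (Mp2g19210) had 11.7, 6.48 and 4.96 CPM in control replicates 1, 2 and 3 and 1.71, 0.372 and 0.828 CPM in arsenite replicates 1, 2 and 3. The highest arsenite library, replicate 1, decided part of its ratio of 7.97-fold, which was 12.9-fold without it. The nearby MpPOD13 and MpPOD15 followed the same order of libraries in both groups. MpPOD13 had 49.8, 32.9 and 21.9 CPM in controls and 7.25, 1.32 and 2.56 CPM with arsenite (edgeR log2 fold change -3.20 ± 0.62 SE, adjusted p = 0.0397). It was not called in 5 of 6 fits that left out a library. MpPOD15 had 10.2, 6.14 and 4.42 CPM in controls and 2.41, 0.169 and 0.752 CPM with arsenite, and was not called (log2 fold change -2.60 ± 0.78, adjusted p = 0.117, edgeR).

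Both P450s belonged to CYP829, a large family of Marchantia. MpCYP829-like15 (Mp2g19660) had 7.45, 10.5 and 7.55 CPM in control replicates 1, 2 and 3 and 0.760, 0.237 and 0.414 CPM with arsenite, a ratio of means of 18.1-fold. Its lowest control was 9.80 times its highest arsenite library. MpCYP829-like29 (Mp4g13700) had 8.58, 3.97 and 10.1 CPM in controls and 0.158, 0.406 and 0.451 CPM with arsenite, a ratio of 22.3-fold. The gene next to the first, MpCYP829-like14, did not share its profile: it had 4.50, 8.95 and 7.94 CPM in controls and 8.93, 7.96 and 6.25 CPM with arsenite, so the groups overlapped (log2 fold change 0.14 ± 0.29 SE, adjusted p = 0.826, edgeR).

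Among wall enzymes, MpGH3.6 (Mp5g15680) was the one gene with 0 reads in all arsenite libraries. Its dotted symbol follows the naming of glycoside hydrolase family 3, which includes beta-glucosidases and xylosidases, and not that of the auxin-conjugating enzymes MpGH3A and MpGH3B. It had 106, 71 and 128 reads in control replicates 1, 2 and 3, or 2.23, 2.66 and 4.10 CPM. With 0 of 87693734 reads in the arsenite group and a floor of 3 reads over the group (0.0342 CPM), it was at least 87.6-fold lower, which covers counting error only. Controls were at a low level themselves, close to the floor of the rule.

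MpGH16.22 (Mp3g20360) belongs to glycoside hydrolase family 16, which in land plants includes the xyloglucan endotransglucosylases that cut and rejoin wall polymers. It had 9.40, 3.48 and 4.07 CPM in control replicates 1, 2 and 3 and 1.20, 0.372 and 0.527 CPM with arsenite. The ratio of means was 8.06-fold, and 12.6-fold without arsenite replicate 1. Beside it on chromosome 3 lay MpGH16.23, MpGH16.24 and MpGH16.25, and in all 4 genes of this run control replicate 1 was highest. MpGH16.23 had 11.8, 4.05 and 4.45 CPM in controls and 2.85, 0.237 and 0.865 CPM with arsenite, and was not called (log2 fold change -2.32 ± 0.82 SE, adjusted p = 0.168, edgeR). MpGH16.24, at 1.28, 0.412 and 0.256 CPM in controls, was listed with 0 reads in the 3 arsenite libraries, and MpGH16.25 had at most 0.799 CPM in any library.

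MpGT37.11 (Mp6g10590) carries the symbol of glycosyltransferase family 37, which in plants holds fucosyltransferases of wall polysaccharides and glycoproteins. It had 2.23, 2.21 and 3.14 CPM in control replicates 1, 2 and 3 and 1.33, 0.846 and 0.790 CPM with arsenite. At 2.55-fold its ratio of means was the smallest of the 25 genes. The 2 other genes under 3-fold were Mp3g08070 and Mp4g06210, at 2.88-fold and 2.90-fold, both without a symbol. Mp3g08070 had 2.40, 3.07 and 2.85 CPM in controls and 0.792, 1.12 and 0.978 CPM with arsenite. Mp4g06210 had 2.88, 3.22 and 2.37 CPM in controls and 1.20, 0.406 and 1.32 CPM with arsenite. Controls of all 3 genes were close together, and each had an arsenite library above 1 CPM.

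MpPR15c (Mp2g01620) is named for the germin-like class of pathogenesis-related proteins, secreted cupin-fold proteins, some of which are oxalate oxidases in cereals. It had 8.06, 8.84 and 4.001 CPM in control replicates 1, 2 and 3 and 0.538, 0.339 and 1.47 CPM with arsenite, a ratio of means of 8.92-fold, or 15.9-fold without arsenite replicate 3. Around it on chromosome 2 were 8 further genes named as PR15 or cupin proteins, with MpGH18.2 between them, and 0 of the 7 tested were called by edgeR. The next gene, MpPR15d, had 5.97, 3.18 and 0.960 CPM in controls and 0.570, 0.508 and 0.339 CPM with arsenite (edgeR log2 fold change -2.80 ± 0.66 SE, adjusted p = 0.0657). MpCupin11, in the same run, had 20.8, 11.3 and 8.45 CPM in controls and 31.1, 17.5 and 8.05 CPM with arsenite, so the run did not move as a whole.

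Lipoxygenases add oxygen to polyunsaturated fatty acids, the first step of oxylipin synthesis. MpLOX15 (Mp2g23370) had 4.65, 4.23 and 2.50 CPM in control replicates 1, 2 and 3 and 0.760, 0.237 and 0.489 CPM with arsenite, a ratio of 7.66-fold. Its neighbour MpLOX2 had 198 to 285 CPM in controls and 221 to 232 CPM with arsenite, with overlapping groups. MpLTP-like63 (Mp1g04730), of the small secreted lipid transfer proteins, had 3.28, 2.96 and 5.70 CPM in controls and 0.348, 0.677 and 0.941 CPM with arsenite, a ratio of 6.07-fold.

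Among the 14 genes without a symbol were several of the widest gaps. Mp5g22410 had 2.21, 6.59 and 15.1 CPM in control replicates 1, 2 and 3 and 0.0950, 0.237 and 0 CPM with arsenite. Its ratio of 71.9-fold rested on 10 arsenite reads in all (exact Poisson 95% interval 4.80 to 18.4, counting error only) and was 39.8-fold without control replicate 3 and 168-fold without arsenite replicate 2. Mp5g22010 also had 10 arsenite reads in all. Its CPM was 5.39, 3.33 and 5.83 in controls and 0.0633, 0.0677 and 0.226 with arsenite, a ratio of 40.8-fold, or 74.0-fold without arsenite replicate 3. Its controls spread 1.75-fold, and its lowest control was 14.8 times its highest arsenite library.

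Mp4g05460 and Mp2g21840 were both highest in control replicate 1 and lowest in control replicate 3. Mp4g05460 had 15.3, 6.67 and 2.85 CPM in control replicates 1, 2 and 3 and 0.285, 0.135 and 0.188 CPM with arsenite, a ratio of 40.8-fold, or 23.5-fold without control replicate 1. Mp2g21840 had 22.5, 13.1 and 5.54 CPM in controls and 0.728, 0.812 and 0.903 CPM with arsenite, a ratio of 16.8-fold. Its arsenite libraries held 23, 24 and 24 reads and were thus close to each other while its controls spread 4.07-fold. Mp5g21590 had 6.69, 10.6 and 5.70 CPM in controls and 0.728, 0.609 and 0.790 CPM with arsenite, a ratio of 10.8-fold.

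Of the remaining genes without a symbol, Mp3g04580 had 7.72, 3.63 and 2.30 CPM in controls and 0.507, 0.203 and 0.602 CPM with arsenite, a ratio of 10.4-fold, or 6.79-fold without control replicate 1. Mp4g07380 leaned on single libraries: at 11.97, 2.73 and 2.34 CPM in controls and 0.507, 0.440 and 1.28 CPM with arsenite, its ratio of 7.66-fold was 3.42-fold without control replicate 1 and 12-fold without arsenite replicate 3. In Mp6g19260, at 7.07, 2.88 and 2.08 CPM in controls and 0.665, 0.711 and 0.978 CPM with arsenite, control replicate 1 was likewise high, and the ratio was 5.11-fold with it and 3.16-fold without. Mp8g00750 had 4.92, 3.00 and 5.41 CPM in controls and 0.285, 0.643 and 1.24 CPM with arsenite, a ratio of 6.14-fold, or 9.57-fold without arsenite replicate 3.

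The controls of 3 more genes were all at least 2.52 CPM. Mp7g01780 had 2.52, 7.38 and 4.67 CPM in control replicates 1, 2 and 3 and 0.697, 0.745 and 0.414 CPM with arsenite. Mp7g02330 had 4.67, 3.86 and 5.95 CPM in controls and 0.728, 0.914 and 0.978 CPM with arsenite. Mp5g02710 had 3.37, 3.52 and 2.82 CPM in controls and 0.665, 1.08 and 0.640 CPM with arsenite. In Mp7g01780 control replicate 2 stood above the others, while the controls of Mp5g02710 were close together. Ratios for Mp7g01780, Mp7g02330 and Mp5g02710 were 7.86-fold, 5.53-fold and 4.06-fold, and leaving out any 1 library moved none of these 3 by more than 1.5 times.

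Controls varied more among the 25 genes than among most genes of their range. The ratio of the highest to the lowest control had a median of 2.21 for the 25 and was at least 3 for 8 of them (32%). Among all 4622 genes that met the control floor with a mean control CPM from 2.53 to 26.8, which include the 25, the median was 1.31 and 2.19% reached 3. The top of this range was the mean of MpDIR46, which control replicate 3 raised. Outside the dirigent pair the highest mean of a member was 13.7 CPM, so the range was not matched to the level of most members. Control replicate 1 was highest for 8 of the 25 genes (32%), replicate 2 for 7 (28%) and replicate 3 for 10 (40%), beside 43.8%, 23.3% and 32.9% of those 4622 genes. In 7 genes the order was replicate 1 above 2 above 3. Among arsenite libraries, replicate 3 was highest for 13 genes, replicate 1 for 6 and replicate 2 for 5, and MpGH3.6 had no reads. Shares over other genes were not counted for that order of the controls or for the arsenite ranks.

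Genes on either side of the 25 did not enter the rule and were read from the fit across all genes. Of 91 listed genes among the nearest 2 on each side, 62 were tested, 5 were called lower (8.06%, beside 2.14% of all tested genes) and 0 higher with edgeR. At an unadjusted p under 0.05, 18 of the 62 were lower and 3 higher. Of the 18, 7 carried a symbol of the family of their member and 11 did not. The share of all tested genes below this unadjusted p was not counted. DESeq2 called 15 lower and 2 higher of the 76 with any reads. Its shares over all genes with an adjusted p were 4.73% lower and 5.48% higher. Voom called 5 lower and 0 higher, beside 1.93% and 1.99% of all tested genes. The 5 called lower by edgeR were MpPOD13, MpDIR44, Mp3g08060, Mp4g05470 and Mp8g00740. Leaving out neighbours whose symbol placed them in the family of their member, 3 of 53 (5.66%) were called lower. The median log2 fold change was -0.13 over all 62, -0.036 over the 53 and -2.32 over the 9 same-family neighbours. Counts were small and depended on single libraries, and calls over all tested genes fell in the same fits. Without arsenite replicate 1, 5 of 65 were called lower, beside 1.21% of all tested genes. Without arsenite replicate 2, 1 of 66 was called lower, beside 0.168% of all tested genes. Without arsenite replicate 3 it was 3 of 65, beside 1.67%. Without control replicate 1, 2 or 3 it was 1 of 63 (beside 0.512%), 2 of 64 (0.707%) and 2 of 65 (0.695%).

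Of the 5 lower neighbours, 3 carried no symbol and so could not be placed in a family. Mp3g08060, 2 places from Mp3g08070, had 64.3, 124 and 95.6 CPM in control replicates 1, 2 and 3 and 10.7, 14.7 and 6.47 CPM with arsenite (edgeR log2 fold change -3.14 ± 0.36 SE, adjusted p = 0.0106). This call held with each library left out in turn. Mp8g00740, next to Mp8g00750, had 27.7, 22.6 and 32.8 CPM in controls and 2.88, 5.82 and 7.15 CPM with arsenite (edgeR log2 fold change -2.36 ± 0.33, adjusted p = 0.0172). Mp4g05470, next to Mp4g05460, had 7.78, 10.3 and 7.87 CPM in controls and 3.58, 2.03 and 1.28 CPM with arsenite (edgeR log2 fold change -1.88 ± 0.38, adjusted p = 0.0420). Leaving out 1 library ended the last 2 calls in 3 and 4 of 6 cases. None of these 3 genes overlapped its member in the reference table.

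**Figure D4:**
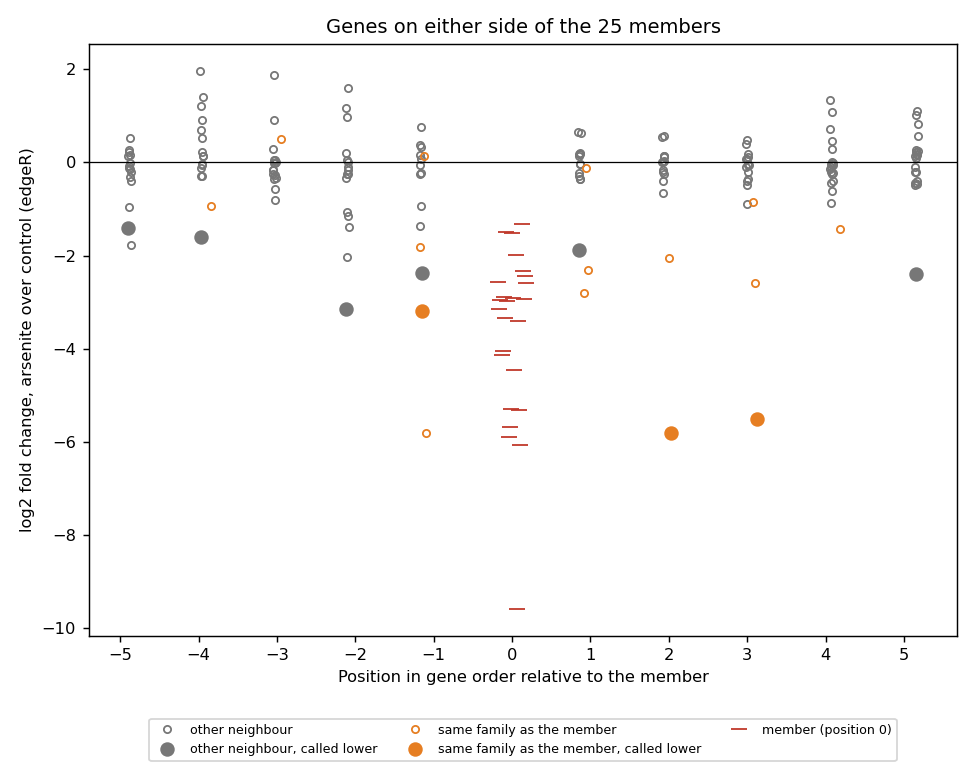
Log2 fold change, arsenite over control, of tested genes within 5 places of a member in gene order, each gene shown once at its nearest member. Filled circles were called lower, orange marks genes of the member's own family, and red bars at 0 are the 25 members. Of 166 tested genes within 5 places, 9 (5.42%, beside 2.14% of all tested genes) were called lower and 3 higher (MpCYP716, MpOMT21 and Mp8g00810). Among these neighbours, members left out, the lowest points are dirigent genes.

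The families of the members differed in how many other genes were lower. Of 34 other tested CYP829 genes, 9 were called lower (26.5%, beside 2.14% of all tested genes) and 1 higher, with a median log2 fold change of -0.72. The count ran from 2 to 7 with a library left out. Of the 9, MpCYP829F2 and MpCYP829-like42 met both thresholds and were left out by the rule, so the contrast had chosen them too; of the 32 that had not met both, 7 were called lower (21.9%), with a median of -0.67. Among these, MpCYP829-like35 was near-silent with arsenite as well, with 2.38, 0.712 and 2.69 CPM in control replicates 1, 2 and 3 and 0.0633, 0.203 and 0.188 CPM with arsenite (edgeR log2 fold change -3.63 ± 0.65 SE, adjusted p = 0.0324). It missed the rule through control replicate 2 and lost its call in 5 of 6 runs with a library left out.

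Of 37 other tested dirigent genes 4 were lower (10.8%, beside 2.14% of all tested genes) and 1 higher (median log2 fold change -0.22). With a library left out, 1 or 2 were lower. MpDIR44 and MpDIR64, of the same run as the members, were among the 4. Of 131 other peroxidases 10 were lower (7.63%) and 5 higher (median 0.12, 0 to 9 lower with a library left out). Of 14 other lipoxygenases 1 was lower, MpLOX4, with 55.6, 165 and 65.5 CPM in controls and 22.2, 12.5 and 18.4 CPM with arsenite (edgeR log2 fold change -2.42 ± 0.47 SE, adjusted p = 0.0395). Leaving out 1 library ended its call in 5 of 6 cases. The median log2 fold change of the other 14 was 0.05.

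Of 28 other tested family 16 genes 3 were higher and 0 lower with edgeR, with a median log2 fold change of 0.55. At an unadjusted p under 0.05 there were 11 higher and 2 lower, and DESeq2 called 3 lower and voom 0. In family 3, MpGH3.2 was the 1 lower among 6 others, with 8.42, 4.61 and 4.32 CPM in controls and 1.81, 2.30 and 2.03 CPM with arsenite (edgeR log2 fold change -1.47 ± 0.31 SE, adjusted p = 0.0476). It was not called with any of the 6 libraries left out. In family 37, MpGT37.10 was the 1 lower among 14 others, with 84.2, 91.1 and 84.1 CPM in controls and 56.7, 45.8 and 45.5 CPM with arsenite (edgeR log2 fold change -0.78 ± 0.12, adjusted p = 0.0230). It was not called in 4 of 6 such fits. Of 4 other PR15 genes and 12 other lipid transfer proteins, 0 were lower with edgeR, 2 and 0 had a lower value at an unadjusted p under 0.05, DESeq2 called 2 and 0 lower, and voom none. The share of all tested genes below that unadjusted p was not counted, so the unadjusted counts of these families have no background.

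**Figure D5:**
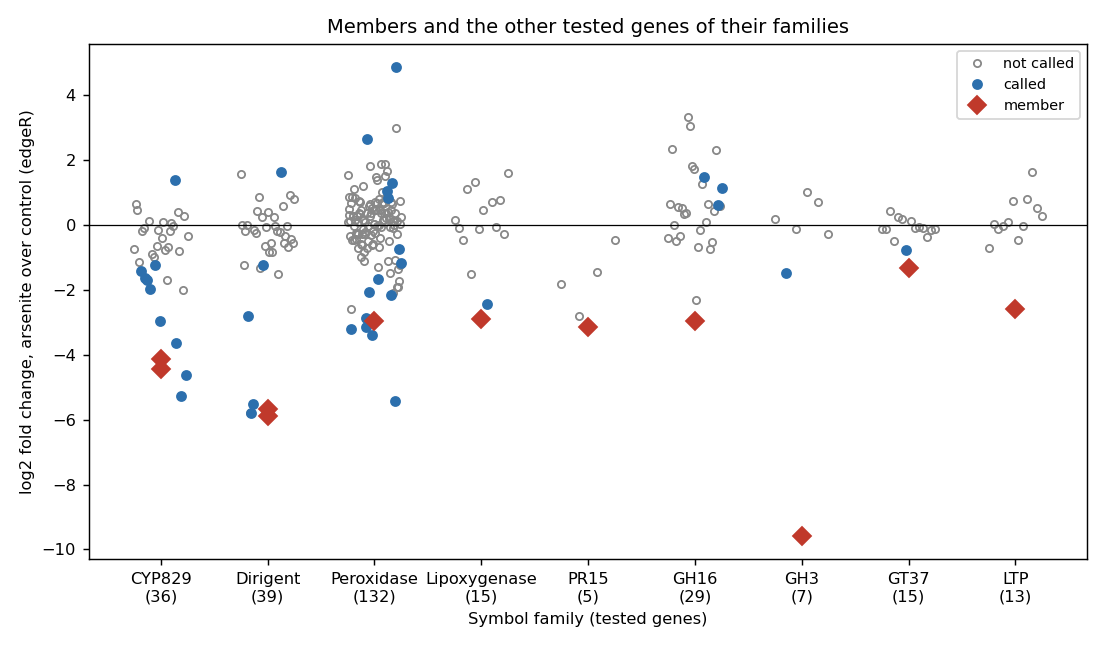
Log2 fold change, arsenite over control, of every tested gene in the symbol families that hold a member, with the number tested in brackets. Red diamonds are members, filled blue points other genes called at an adjusted p below 0.05, and open points genes that were not called. Members lie at the low end of their families by choice, the CYP829 family extends downward beyond its 2 members, and the other family 16 genes lie mostly above 0.

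Markers of thallus cell types moved beside the 25 genes in a few cases, and their part in the differences was not tested. All 5 oil body cell markers were matched, their summed CPM was 83.6 to 119 in controls and 44.0 to 73.0 with arsenite, and 2 were called lower, MpABCG1 and MpSYP12B. The largest part of the oil body cell sum was MpC1HDZ, which was not called. It had 41.4 to 65.0 CPM in controls and 29.1 to 48.3 CPM with arsenite, so its groups overlapped. MpABCG1, a transporter of these cells, had 23.2, 28.6 and 34.8 CPM in control replicates 1, 2 and 3 and 9.06, 14.3 and 14.2 CPM with arsenite (edgeR log2 fold change -1.18 ± 0.23 SE, adjusted p = 0.0398). MpSYP12B, a membrane fusion protein of the oil body, had 5.87, 4.76 and 5.99 CPM in controls and 1.33, 2.71 and 2.11 CPM with arsenite (edgeR log2 fold change -1.41 ± 0.29, adjusted p = 0.0462). No oil body marker was at 0, and leaving out 1 library ended the calls of MpABCG1 and MpSYP12B in 5 and 6 of 6 cases.

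Of 6 antheridium and sperm markers 1 was lower, and their summed CPM was 99.9 to 117 in controls and 93.9 to 96.3 with arsenite. Most of this sum was MpCEN1, which was not called, with 63.2 to 77.3 CPM in controls and 65.8 to 73.7 CPM with arsenite. The lower marker was MpBNB, listed as MpBHLH20, a transcription factor that specifies gametangium initial cells. It was below the control floor of the rule in 2 controls, and its CPM was 1.64, 1.54 and 3.46 in controls and 0.285, 0.305 and 0.188 with arsenite (log2 fold change -3.03 ± 0.45 SE, adjusted p = 0.0193, edgeR). Leaving out 1 library ended its call in 3 of 6 cases. MpPRM, the sperm protamine, had at most 0.0210 CPM in any library. None of the other lists had a called gene. The 2 matched rhizoid markers summed to 12.2 to 15.3 CPM in controls and 19.8 to 23.0 CPM with arsenite, and 3 gemma and gemma cup markers to 45.6 to 56.2 and 53.4 to 79.6 CPM. MpRSL1 is in both lists and made up nearly all of the rhizoid sum, with 11.8 to 15.1 CPM in controls and 19.3 to 22.3 CPM with arsenite. The 5 apical notch markers summed to 245 to 352 CPM in controls and 231 to 243 CPM with arsenite, and the 3 archegonium and egg markers, 2 of them tested, to 158 to 175 and 123.5 to 139 CPM. The largest part of the apical notch sum was MpSHI, with 181 to 279 CPM in controls and 150 to 169 CPM with arsenite. Most of the archegonium and egg sum was MpRKD, with 140 to 161 CPM in controls and 108 to 129 CPM with arsenite. The air chamber gene MpNOP1 had 86.8 to 111 CPM in controls and 105 to 139 CPM with arsenite.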

How the data were processed

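Each deposited file lists integer counts of reads by gene ID, made by the authors with htseq-count on Galaxy per the names of the deposited files. Aligner, build, annotation and strand setting were not given in the sources used here. Whether the counts kept apart reads of overlapping genes on opposite strands is therefore not known. CPM was the count over the file total times 1000000. The fit across genes used edgeR 4.0.16 (R 4.3.3) with TMM factors, the low-count filter by group and a threshold of 0.05 on Benjamini-Hochberg adjusted p; standard errors came from the fold change and F statistic. DESeq2 1.42.0 and limma voom 3.58.1 were alternatives. The procedure was tested on simulated data. Library totals were 26579324 to 47532310 reads, and no pair of libraries of a group agreed within sampling noise. Symbols and gene order came from RefSeq's table of MpTak2_v7.1, in which 17671 of 18391 locus tags matched an ID. Members and lists were chosen with earlier results of these data known, and the lists for PR15, cupins, families 3, 16 and 37 and lipid transfer proteins after the members were seen. Named genes were all members with a symbol, the 12 with the highest mean control CPM, the 5 with the lowest ratio, those beside the thresholds and neighbours. Some further genes were named after their values were seen: the remaining members, genes highest in control replicate 3, the called genes of arrays and families, MpCYP829-like14, MpCYP829-like35 and the 3 higher neighbours. Protein relatives and promoter motifs were not analysed here.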

Additional observations from a re-analysis of the deposited data

How the results depend on the processing

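The choice of the 25 genes depended on its thresholds: 9 remained at an arsenite mean below 0.5 CPM, 16 with every arsenite library below 1 CPM and 3 at a control floor of 5 CPM, while a floor of 1 CPM gave 96. With a library left out it gave 24 to 35 genes, and with TMM-scaled CPM the same 25. The log2 ratio of their summed CPM, with MpDIR46 and MpDIR47 included, was -3.59, -3.80 to -3.27 with a library left out. Genes called in either direction numbered 566, 1526 with DESeq2, 57 at a threshold of 0.01 and 39 to 461 with a library left out. Members called lower numbered 4 at a threshold of 0.01 and 3 to 16 with a library left out. Flanking genes called lower numbered 15 of 76 with DESeq2, 0 at a threshold of 0.01 with edgeR, 9 of 166 within 5 places, 3 of 53 without same-family neighbours (an alternative chosen after seeing the data) and 1 to 5 with a library left out. Replicate numbers are shared between the groups, but same-numbered libraries did not deviate together (correlations of -0.10, -0.05 and 0.03 over 500 genes, and -0.33 to 0.43 between libraries of different numbers, where every library had its highest correlation); with the replicate number as a block, 364 genes, 17 members and 7 flanking genes were called. Of 490 log2 fold changes of 41 genes under the alternatives, 0 reversed, 306 kept their side of the threshold, 174 lost the call and 10 gained it. The absence of reversals was nearly fixed in advance, because most of these genes were chosen or named for their difference. The threshold of 0.01 also reuses the fold change of the main fit. Planned comparisons with relatives by protein sequence were not run. Depth limits the arsenite side, where members had 0 to 88 reads in all.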
